A study of Mus musculus with 6 samples.

Results

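Tubulins, microtubule-associated proteins (MAPs), stathmins and genes that fold, ligate or bind along microtubules were examined in cultured mouse retinal ganglion cells (RGCs), the neurons whose axons form the optic nerve. The set was given by name, as 43 mouse gene symbols. It holds 5 alpha-tubulin, 7 beta-tubulin and 2 gamma-tubulin genes, 10 MAPs, 7 plus-end proteins, 3 genes of the doublecortin family, 4 stathmins, and 5 further genes (the folding cofactors Tbca and Tbcb, the tubulin tyrosine ligase Ttl, and the kinesin adaptors Fez1 and Fez2). All 43 were among the 43346 Ensembl genes in the tables, and all 43 were among the 15747 genes with enough counts to be tested.

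RGCs were purified by immunopanning and transduced with an adeno-associated virus (AAV) that carried EGFP alone (control), Sox11 and EGFP, or Sox11K91A and EGFP, with 2 replicates per group and 6 libraries in all. Sox11 is a transcription factor of developing neurons, and in Sox11K91A the lysine at position 91, a site for attachment of the small protein SUMO, is replaced by alanine. All groups, controls included, received an AAV and grew in medium with forskolin, BDNF and CNTF. The virus was added 4 h after plating and RNA was taken 72 h after plating, at the same viral dose in each group. The sources disagree on the age of the cells. The RNA-seq protocol gives embryonic day 18, the general culture protocol postnatal day 2, and the names under which the libraries were deposited the day of birth. The promoter in the viruses is not given in the sources used here. The protocol speaks of 3 RNA samples sequenced in duplicate and no label says that replicates were separate cultures, so the p-values measure only the spread between these libraries, which may be technical.

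Total counts per library were between 27521982 and 37061718. Sox11 itself, counted from the cellular gene and the virus together, had 234 and 332 CPM (counts scaled to library size, adjusted by the TMM method) in the control libraries, 9178 and 14591 with Sox11, and 11971 and 7026 with Sox11K91A. Control replicate 2 stood apart in that its counts moved with gene length: relative to control replicate 1, the shortest genes (lowest quartile of transcript length) had a median log2 difference of 0.27 and the longest (highest quartile) one of -0.30. The same medians were -0.08 and 0.06 between the Sox11 libraries and 0.04 and -0.04 between the Sox11K91A libraries. Over all genes tested, the median absolute log2 difference between replicates was 0.34 in controls, 0.26 with Sox11 and 0.16 with Sox11K91A. Xist had 400 and 95.9 CPM in controls, 526 and 254 with Sox11, and 506 and 481 with Sox11K91A. Whether these differences between replicates are technical was not tested.

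Microtubules are hollow polymers of alpha- and beta-tubulin dimers that carry transport in axons and dendrites and whose growth at the plus end drives axon extension. Neurons use several tubulin genes, or isotypes, which differ mainly in the tail at the end of the protein, and they change the mixture as they mature. MAPs bind and stabilize or space the polymer, plus-end proteins follow its growing tip, doublecortins support it in migrating and growing neurons, and stathmins bind free tubulin dimers and promote disassembly.

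Some isotypes are so alike in sequence that a read can match more than 1 gene. The last 90 coding bases of the neighbouring genes Tubb2a and Tubb2b, whose ratio is followed through the libraries, are shown to make this visible, with capitals at the bases that differ from the partner (GENCODE M21, GRCm38, coding bases 1249 to 1338, minus strand).
Tubb2a: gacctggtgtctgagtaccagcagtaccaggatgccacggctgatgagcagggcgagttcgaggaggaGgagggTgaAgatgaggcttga
Tubb2b: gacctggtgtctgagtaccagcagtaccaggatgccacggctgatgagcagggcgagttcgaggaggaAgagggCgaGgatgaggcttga
Within this stretch, which encodes the tail of the protein, the pair differed at 3 bases, and all 3 are synonymous, so that both genes encode the same tail and are told apart here only by their RNA. Over the whole coding sequence Tubb2a and Tubb2b differed at 47 of 1338 bases, an identity of 96.5%, and the longest run without a difference was 551 bases. The deposited tables hold an error for this assignment of reads, the posterior SD of each count. It was at most 0.396% of the count for Tuba1b, 0.274% for Tubb2a and 0.19% for Tubb2b in any library, and above 1% for only 3 of the 43 genes, with 6.6% for Tuba1c, 1.96% for Tuba4a and 1.55% for Tuba8. This error is that of the authors' counting model, and a split of reads between near-identical genes is uncertain beyond it.

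In control RGCs the most abundant transcript of the set, on the TPM scale, which divides by transcript length and so allows genes to be compared, was Tuba1a, the alpha tubulin of growing neurons, at 5359 ± 253 (SD, n = 2, as for all levels with an error below). Next came the stathmins Stmn1 (2720 ± 740), Stmn3 (1943 ± 196) and Stmn2 (1757 ± 343), of which the last 2 did not differ beyond their spread. The beta tubulins Tubb2a (1571 ± 151) and Tubb2b (1510 ± 53.8) had like levels, as did the neuron-specific Tubb3 (1260 ± 141) and the broadly used Tubb5 (1138 ± 10.1). Among MAPs, Mapt, which encodes tau, was highest at 693 ± 21.7, followed by Map1b (392 ± 144), Map4 (295 ± 49.4), Map6 (278 ± 67.0) and Map2 (242 ± 65.8), and from Map1b to Map2 neighbours in this order lay within their spread. Dcx, which encodes doublecortin, had 67.9 ± 19.3 TPM, and the lowest genes were Tuba1c (8.38 ± 0.516), Tuba8 (7.39 ± 2.33) and Map7 (5.36 ± 1.36).

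**Figure D1:**
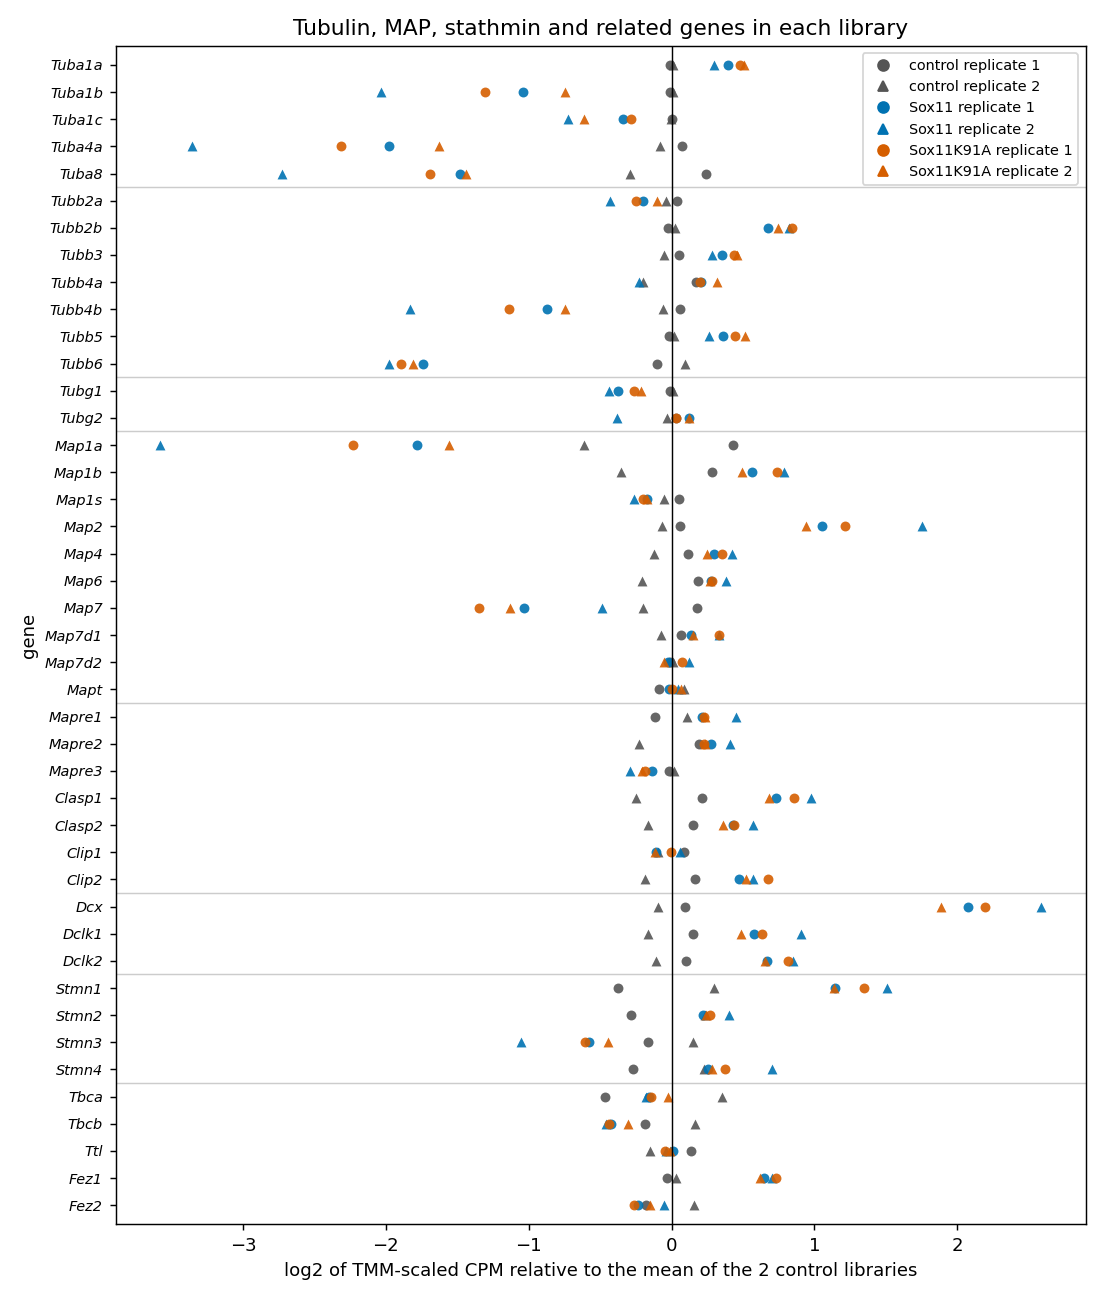
Each row is 1 of the 43 genes, ordered by role with grey lines between roles, and each symbol is 1 library, placed by the log2 of its CPM relative to the mean of the 2 control libraries (x axis, no unit). Dcx, Map2 and Stmn1 lie far to the right in all 4 Sox11 and Sox11K91A libraries and Tuba4a, Map1a, Tuba8, Tubb6, Tuba1b and Tubb4b far to the left, with Sox11 replicate 2 the outermost library for each of these 9 genes.

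The first question was which of these genes changed with each virus. With Sox11, 15 of the 43 were called different from control (limma-voom, an adjusted p under 0.05 with a change of more than 1.2-fold), beside 20.1% of all genes tested. Upregulated were 8 genes, Tubb2b, Map2, Clasp1, Dcx, Dclk1, Dclk2, Stmn1 and Fez1 (9.96% of all genes were called higher), and downregulated were 7, Tuba1b, Tuba4a, Tuba8, Tubb4b, Tubb6, Map1a and Stmn3 (10.2% of all genes were called lower). With Sox11K91A, 10 were called, beside 10.6% of all genes tested. The 7 upregulated were Tubb2b, Map2, Clasp1, Dcx, Dclk2, Stmn1 and Fez1, beside 5.81% of all genes called higher, and the 3 downregulated were Tuba4a, Tubb6 and Map7, beside 4.81% called lower. Both comparisons use the same 2 control libraries, so they are not independent. Of the 16 genes called with either virus, 9 were called with both, each in the same direction with both.

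The set did not move in a single direction. Its median log2 fold change was 0.05 with Sox11 and 0.23 with Sox11K91A, beside 0.01 and 0.02 over all genes tested, and its median absolute log2 fold change was 0.43 and 0.44, beside 0.46 and 0.39. The 2 Sox11 libraries lay outside the range of the controls for 34 of the 43 genes, where this held for 61.5% of all genes, and the Sox11K91A libraries did so for 36, where it held for 61.9%. The counts of calls rested on single libraries. Without Sox11 replicate 2, limma-voom called 0 of the 43 (16 had an unadjusted p under 0.05) and 0 genes in all (3347 with an unadjusted p under 0.05) for Sox11, although all 15 kept their direction. For Sox11K91A, 0 of the 43 and 0 genes in all were called without control replicate 2 (19 and 4753 with an unadjusted p under 0.05), 0 and 19 without Sox11K91A replicate 1 (11 and 1948), and 2 and 319 without Sox11K91A replicate 2 (17 and 3275). Without control replicate 1 the count was 16 of the 43, and all 10 kept their direction in each case. Leaving out control replicate 2 and Sox11 replicate 2 together, an alternative added after seeing the data, gave 12 genes with Sox11 and 20 with Sox11K91A. Other ways of fitting also moved calls. With Sox11, sample quality weights ended the calls of Tuba1b, Tubb4b, Map1a, Clasp1, Dclk1, Dclk2, Stmn3 and Fez1, and a fit of the 2 groups alone those of Tubb2b, Clasp1, Dclk1, Dclk2, Stmn3 and Fez1. With Sox11K91A, limma-trend on log2(TPM + 1) ended those of Tuba4a, Tubb2b, Map2, Map7, Clasp1 and Stmn1, and all of these but Tubb2b and Stmn1 were also lost on log2(TPM + 0.1). DESeq2 kept every call and added Tuba1a, Tubg1, Map1b, Clasp2 and Clip2 with Sox11 and Tuba1a, Tuba1b, Tuba8, Tubb3, Tubb4b, Tubb5, Clip2 and Dclk1 with Sox11K91A.

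Markers of RGCs also moved with the viruses. The summed CPM of 8 RGC markers was 9480 to 10249 in the controls, 3933 to 6477 with Sox11 and 5182 to 6791 with Sox11K91A, and no marker was at 0 in any library. Most of this sum was the neurofilament gene Nefl, with 7086 and 6345 CPM in controls, 4104 and 2188 with Sox11, and 3096 and 4328 with Sox11K91A, while Isl1 lay at 260 to 289 CPM in all 6 libraries. Thy1, which encodes the CD90 protein used for the panning, had 725 and 689 CPM in controls, 259 and 46.3 with Sox11, and 154 and 312 with Sox11K91A. With Sox11 it was called lower together with Nefl and Slc17a6, and with Sox11K91A only Slc17a6 of these was called. The RGC transcription factor Pou4f1 (428 and 369 CPM in controls, 386 and 321 with Sox11, 332 and 385 with Sox11K91A) and the RNA-binding protein Rbpms did not pass the test with either virus. The summed CPM of 6 astrocyte and Müller glia markers was 103 to 108 in controls, 273 to 299 with Sox11 and 269 to 313 with Sox11K91A. Nearly all of it was Glul, while Gfap was at 0 in all 6 libraries, Aqp4 reached at most 0.248 CPM and Slc1a3 at most 1.01. Lists for dividing cells, microglia, and photoreceptor and bipolar cells summed to at most 2.83, 1.43 and 2.05 CPM. Those for endothelial cells and fibroblasts summed to at most 10.4 and 13.1 CPM, and that for oligodendrocytes to between 28.9 and 49.4. Most of the latter was Mbp (25.2 to 48.5 CPM), and Olig2 was at 0 in all 6 libraries. The amacrine cell list differed between replicates. It summed to 92.6 and 24.4 CPM in controls, 59.3 and 16.9 with Sox11, and 67.6 and 54.8 with Sox11K91A. Its member Gad1 had 36.2 and 2.83 CPM in controls, 17.5 and 2.23 with Sox11, and 19.7 and 17.2 with Sox11K91A. In bulk RNA, fewer cells of a type and less RNA per cell cannot be told apart, and the part of these shifts in the results below was not tested.

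With Sox11, 3 of the 5 alpha-tubulin genes were called lower, beside 10.2% of all genes tested, and none was called higher. With Sox11K91A, 1 of the 5 was called lower, beside 4.81%. The far more abundant Tuba1a was not called, and the summed alpha-tubulin TPM was higher with both viruses than in controls (below). Tuba4a (chr1:75214228-75219865), an alpha tubulin of mature neurons whose protein lacks the usual final tyrosine, had 108 and 97.0 CPM in control libraries, 26.0 and 10.0 with Sox11, and 20.6 and 33.2 with Sox11K91A. All 4 transduced libraries lay below both controls. The log2 fold change was -2.71 ± 0.41 (SE of the fit, as below) with Sox11, or 6.53-fold lower (limma-voom adjusted p = 0.013), and -1.98 ± 0.37 with Sox11K91A, or 3.93-fold lower (adjusted p = 0.028). The call with Sox11 was lost when Sox11 replicate 2 was left out (-1.97, adjusted p = 0.075), and that with Sox11K91A without control replicate 2 (-2.06, adjusted p = 0.066), Sox11K91A replicate 1 (-1.62, adjusted p = 0.21) or Sox11K91A replicate 2 (-2.32, adjusted p = 0.052). Tuba4a shares 37.3% of its exon bases with Stk16 on the other strand, and the use of strand in the counting is not stated. Stk16, a kinase gene, had log2 fold changes of 0.04 and 0.02, neither called.

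Tuba1b (chr15:98931425-98934565), a broadly expressed alpha tubulin, had 645 and 652 CPM in controls, 315 and 158 with Sox11, and 262 and 386 with Sox11K91A, without overlap with the controls. It fell 2.90-fold with Sox11 (log2 fold change -1.54 ± 0.34, adjusted p = 0.026), whereas with Sox11K91A the value of -1.03 ± 0.34 was not called (adjusted p = 0.095). Tuba8 (chr6:121210696-121226854), a minor isotype, had 9.23 and 6.38 CPM in controls, 2.80 and 1.18 with Sox11, and 2.42 and 2.88 with Sox11K91A. Again the groups did not overlap, with a 4.23-fold fall with Sox11 (-2.08 ± 0.44, adjusted p = 0.024) and a value of -1.51 ± 0.40 with Sox11K91A that missed the threshold (adjusted p = 0.057). With Sox11, the values left after dropping Sox11 replicate 2 were -1.04 for Tuba1b (adjusted p = 0.12) and -1.42 for Tuba8 (adjusted p = 0.15), and Tuba1b also lost its call without control replicate 1 (-1.55, adjusted p = 0.057) or control replicate 2 (-1.53, adjusted p = 0.076). With Sox11K91A both genes passed once Sox11 replicate 1 or 2 was dropped from the fit, with values of -1.03 and -1.02 for Tuba1b and -1.52 and -1.51 for Tuba8 (adjusted p = 0.04 and 0.043 for each gene). The major neuronal isotype Tuba1a (chr15:98949837-98953703) went from 4021 and 4088 CPM in controls to 5326 and 4973 with Sox11 and 5644 and 5754 with Sox11K91A, above both controls in all 4 libraries, but was called with neither virus. Tuba1c, at 4.74 to 7.84 CPM in all libraries, was not called either. Tuba1a and Tuba1b each share part of their exons with a gene model on the same strand, Gm49450 (26.2% and 22.7%), and Tuba8 shares 16.3% with Gm15856 on the other strand.

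Beta tubulins moved in both directions. Tubb2b (chr13:34126748-34130466), an isotype of immature and migrating neurons, had 1341 and 1388 CPM in controls, 2178 and 2409 with Sox11, and 2443 and 2288 with Sox11K91A. Every transduced library lay above both controls, and Tubb2b rose 1.68-fold with Sox11 (log2 fold change 0.75 ± 0.14, adjusted p = 0.02) and 1.73-fold with Sox11K91A (0.79 ± 0.14, adjusted p = 0.025). The call with Sox11 was lost without Sox11 replicate 2 (0.68, adjusted p = 0.14) and narrowly without Sox11K91A replicate 1 or 2 (0.75 and 0.74, adjusted p = 0.055 and 0.056). That with Sox11K91A was lost without control replicate 2 (0.82, adjusted p = 0.057) or Sox11K91A replicate 1 or 2 (0.75 and 0.84, adjusted p = 0.3 and 0.12). Its neighbour Tubb2a (chr13:34074274-34078007), an isotype that gains weight in mature neurons, had 1165 and 1104 CPM in controls, 988 and 841 with Sox11 and 956 and 1056 with Sox11K91A, and passed in neither comparison.

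Tubb4b (chr2:25222160-25224702), a broadly used isotype, had 273 and 251 CPM in controls, 143 and 73.6 with Sox11, and 119 and 156 with Sox11K91A. The groups did not overlap, and it fell 2.55-fold with Sox11 (-1.35 ± 0.31, adjusted p = 0.029), whereas the value of -0.94 ± 0.31 with Sox11K91A was not called (adjusted p = 0.095). Its call with Sox11 was lost without Sox11 replicate 2 (-0.87, adjusted p = 0.12), control replicate 1 (-1.29, adjusted p = 0.066) or control replicate 2 (-1.42, adjusted p = 0.072), and it passed with Sox11K91A when Sox11 replicate 1 or 2 was dropped (-0.94 and -0.93, adjusted p = 0.034 and 0.037). Tubb6, a further non-neuronal isotype, had 28.7 and 33.0 CPM in controls and 7.84 to 9.24 in the 4 transduced libraries. The transduced libraries lay close together and well below the controls, and Tubb6 fell 3.64-fold with Sox11 (log2 fold change -1.86 ± 0.19, adjusted p = 0.0093) and 3.61-fold with Sox11K91A (-1.85 ± 0.19, adjusted p = 0.012). Tubb6 missed the threshold with Sox11 without Sox11 replicate 2 (-1.73, adjusted p = 0.069), and with Sox11K91A without control replicate 2 (-1.75, adjusted p = 0.053) or Sox11K91A replicate 1 (-1.81, adjusted p = 0.11). Tubb3, Tubb5 and the mature isotype Tubb4a were called with neither virus, with log2 fold changes between 0.00 and 0.48.

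The make-up of the tubulin pool, as the share of each gene in the summed TPM of its family, was next compared. Tuba1a made up 85.0% and 85.1% of alpha-tubulin TPM in the control libraries, 94.2% and 96.6% with Sox11, and 95.4% and 93.5% with Sox11K91A. The share of Tuba1b was 12.8% in both controls, 5.26% and 3.13% with Sox11, and 4.24% and 5.98% with Sox11K91A, and that of Tuba4a was 1.93% and 1.82%, 0.411% and 0.158%, and 0.288% and 0.454%. For these 3 genes the transduced libraries did not overlap with the controls. Among beta tubulins, Tubb2b held 22.7% and 24.3% in controls, 31.4% and 36.5% with Sox11, and 33.6% and 30.8% with Sox11K91A, a gain in the mean of 10.5 and 8.65 percentage points. Tubb2a went from 24.6% and 24.2% to 17.8% and 15.9% with Sox11 and 16.4% and 17.8% with Sox11K91A, a difference of -7.53 and -7.33 points, and Tubb4b from 5.75% and 5.45% to between 1.39% and 2.61% in the 4 transduced libraries. Tubb3 (19.2% to 21.2% in all libraries) and Tubb5 (16.8% to 19.4%) kept nearly even shares.

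An exact permutation test of 2 against 2 libraries cannot give a two-sided p below 0.333, which is the p of every difference named here against control, so these shares are described by their lack of overlap. The summed alpha-tubulin TPM was 6300 ± 305 in controls, 7621 ± 425 with Sox11 and 8284 ± 195 with Sox11K91A, and the summed beta-tubulin TPM was 6433 ± 532, 7991 ± 203 and 8453 ± 86.4. Both totals were higher in each of the 4 transduced libraries than in either control.

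**Figure D2:**
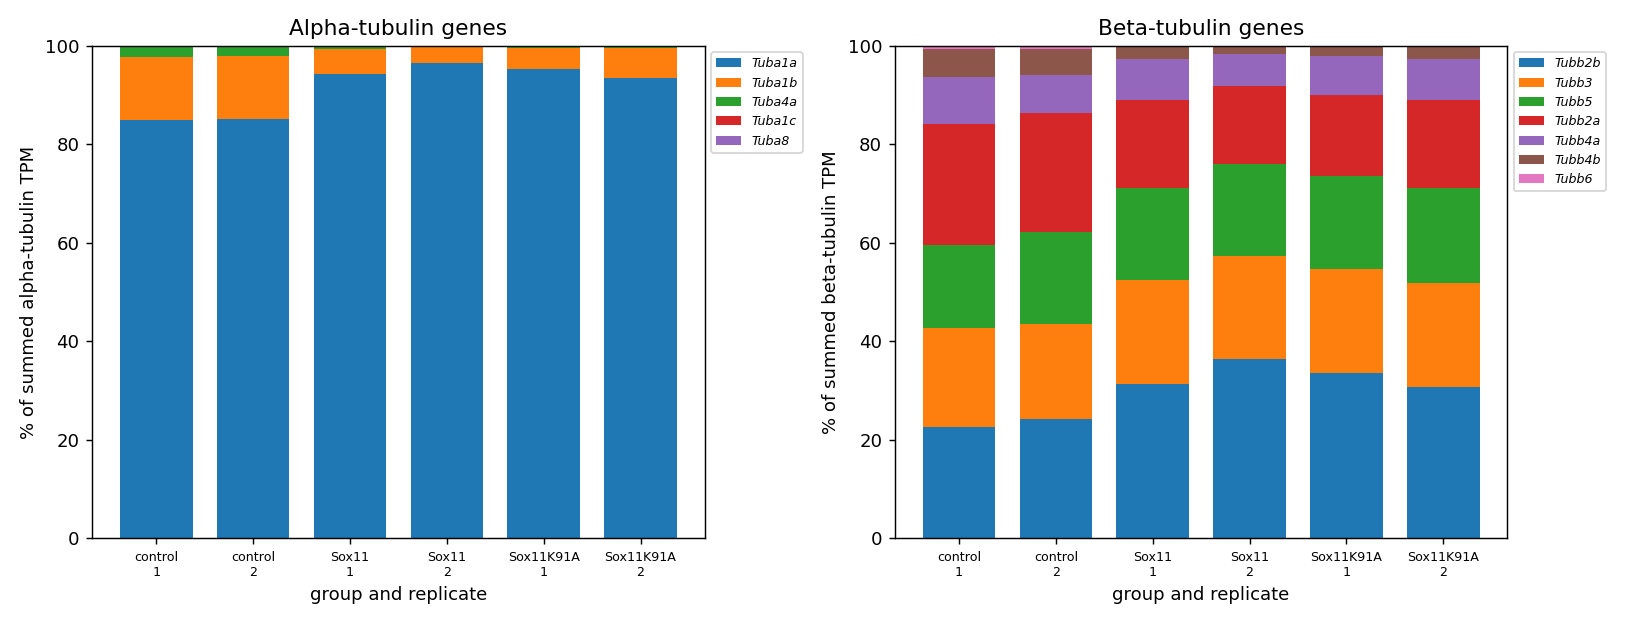
Each stacked bar is 1 library, and its segments give the percentage of summed alpha-tubulin TPM (left) or beta-tubulin TPM (right) that each gene holds. In control libraries Tuba1b takes 12.8% of alpha tubulin, against 3.13% to 5.98% with either virus, and Tubb2b is the widest beta segment in all 4 transduced libraries, at 30.8% to 36.5%.

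The gamma tubulins, which start new microtubules, were not called. Tubg1 had 58.5 and 59.2 CPM in controls, 45.3 and 43.5 with Sox11 and 49.1 and 50.8 with Sox11K91A, so its transduced libraries lay below both controls, and Tubg2 ranged from 25.2 to 35.8 CPM with overlapping groups.

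Among the 10 MAPs, Map2 was upregulated with both viruses, Map1a was downregulated with Sox11, and Map7 was downregulated with Sox11K91A. The share of MAPs called was 20.0% with each virus, beside 20.1% (Sox11) and 10.6% (Sox11K91A) of all genes tested. Map2 (chr1:66175273-66442583), the MAP of dendrites and cell bodies, had 556 and 509 CPM in controls, 1104 and 1792 with Sox11, and 1236 and 1023 with Sox11K91A. All transduced libraries were above the controls, with a rise of 2.64-fold with Sox11 (log2 fold change 1.40 ± 0.24, adjusted p = 0.016) and 2.11-fold with Sox11K91A (1.08 ± 0.24, adjusted p = 0.039). The call with Sox11 was lost without Sox11 replicate 2 (1.06, adjusted p = 0.087). That with Sox11K91A was lost without control replicate 1 or 2 (1.15 and 1.02, adjusted p = 0.054 and 0.097) or Sox11K91A replicate 1 or 2 (0.95 and 1.21, adjusted p = 0.32 and 0.098).

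Map1a (chr2:121289600-121310832), the MAP1 form of mature neurons, had 1180 and 572 CPM in controls, 255 and 73.1 with Sox11, and 187 and 298 with Sox11K91A. The groups did not overlap although the replicates of each group differed widely, and Map1a fell 6.02-fold with Sox11 (-2.59 ± 0.61, adjusted p = 0.031), while -1.80 ± 0.62 with Sox11K91A was not called (adjusted p = 0.103). Leaving out Sox11 replicate 2 (-1.69, adjusted p = 0.14), control replicate 1 (-2.07, adjusted p = 0.09) or control replicate 2 (-3.12, adjusted p = 0.054) ended the call with Sox11, and leaving out Sox11 replicate 1 or 2 brought the value with Sox11K91A past the threshold (-1.81 and -1.80, adjusted p = 0.039 and 0.043).

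Map1b, the MAP1 form of growing axons, had 2922 and 1883 CPM in controls, 3545 and 4144 with Sox11 and 4003 and 3380 with Sox11K91A, above both controls throughout, and was not called. Map7 (chr10:20148471-20281590), which recruits kinesin-1 to microtubules, had 11.7 and 8.98 CPM in controls, 5.06 and 7.39 with Sox11 and 4.07 and 4.73 with Sox11K91A. It fell 2.30-fold with Sox11K91A (-1.20 ± 0.29, adjusted p = 0.046), and its value of -0.71 ± 0.27 with Sox11 was not called (adjusted p = 0.108). The call was lost without control replicate 1 or 2 (-1.03 and -1.41, adjusted p = 0.071 and 0.064) or Sox11K91A replicate 1 or 2 (-1.09 and -1.32, adjusted p = 0.4 and 0.17). Map7 also missed the threshold with the replicate block (adjusted p = 0.063), with no filter on low counts (adjusted p = 0.057) and with limma-trend on log2(TPM + 1) or log2(TPM + 0.1) (adjusted p = 0.093 and 0.1). The other 6, Map1s, Map4, Map6, Map7d1, Map7d2 and Mapt, were called with neither virus, with log2 fold changes between -0.22 and 0.36. Mapt, encoding tau, was the steadiest of the abundant ones at 1544 to 1740 CPM over the 6 libraries.

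Of the 7 plus-end proteins, only Clasp1 was called. With each virus this is 14.3% of the 7, beside 20.1% (Sox11) and 10.6% (Sox11K91A) of all genes tested. Clasp1 (chr1:118389058-118612678), which stabilizes growing plus ends, had 250 and 182 CPM in controls, 359 and 425 with Sox11, and 391 and 347 with Sox11K91A. It lay above the controls in all 4 libraries and rose 1.83-fold with Sox11 (0.87 ± 0.19, adjusted p = 0.027) and 1.73-fold with Sox11K91A (0.79 ± 0.19, adjusted p = 0.048). Its relative Clasp2, the plus-end tracker Clip2, and the EB proteins Mapre1 and Mapre2 also had both transduced groups above the controls, with log2 fold changes from 0.23 to 0.61, and none was called. Mapre3 lay below the controls in all 4 libraries and Clip1 overlapped with them. Clasp1 was among the less stable calls. With Sox11 it missed the threshold without Sox11 replicate 2 (0.76, adjusted p = 0.18), control replicate 2 (0.64, adjusted p = 0.052), Sox11K91A replicate 1 (0.88, adjusted p = 0.051) or Sox11K91A replicate 2 (0.87, adjusted p = 0.052). It also missed it with sample quality weights (adjusted p = 0.055) and in a fit of the 2 groups alone (adjusted p = 0.056). With Sox11K91A it was called in 7 of 19 alternatives. The values were 0.56 without control replicate 2 (adjusted p = 0.087), 0.79 and 0.80 without Sox11 replicate 1 and 2 (adjusted p = 0.058 and 0.062), and 0.71 and 0.87 without Sox11K91A replicate 1 and 2 (adjusted p = 0.39 and 0.15). The adjusted p for Clasp1 was 0.057 with edgeR and with the replicate block, 0.053 with DESeq2 size factors, 0.062 in a fit of the 2 groups, 0.06 when the replicates 2 of control and Sox11 shared a block, and 0.076 and 0.079 with limma-trend.

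Of the 3 genes of the doublecortin family in the set, 3 were upregulated with Sox11, beside 9.96% of all genes called higher. With Sox11K91A 2 of the 3 were, beside 5.81%. The doublecortin-like kinase Dclk3, which is not in the set, lay below the controls with both viruses. It had 2.18 and 2.91 CPM in controls, 1.02 and 0.965 with Sox11, and 0.497 and 0.686 with Sox11K91A. Dcx (chrX:143855842-143933311), the marker of migrating and newly formed neurons, had 300 and 263 CPM in controls, 1185 and 1693 with Sox11, and 1285 and 1040 with Sox11K91A. These libraries were far above the controls, a 5.03-fold rise with Sox11 (log2 fold change 2.33 ± 0.21, adjusted p = 0.0075) and a 4.11-fold rise with Sox11K91A (2.04 ± 0.21, adjusted p = 0.012), the largest rises of the 43 in both comparisons. On the TPM scale Dcx went from 67.9 ± 19.3 to 359 ± 86.6 and 285 ± 45.9.

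Dclk2 (chr3:86786151-86920852), a doublecortin-like kinase, had 154 and 133 CPM in controls, 228 and 259 with Sox11, and 252 and 226 with Sox11K91A, and rose 1.70-fold (0.76 ± 0.15, adjusted p = 0.021) and 1.67-fold (0.74 ± 0.15, adjusted p = 0.033). Dclk1 (chr3:55242364-55539068), a second kinase of this kind, had 634 and 511 CPM in controls, 855 and 1074 with Sox11, and 889 and 801 with Sox11K91A. For both kinases all transduced libraries exceeded the controls, and Dclk1 rose 1.68-fold with Sox11 (0.75 ± 0.18, adjusted p = 0.034), whereas 0.57 ± 0.18 with Sox11K91A was not called (adjusted p = 0.091). When Sox11 replicate 2 was left out, the values with Sox11 were 2.08 for Dcx (adjusted p = 0.056), 0.68 for Dclk2 (adjusted p = 0.15) and 0.59 for Dclk1 (adjusted p = 0.21). Dclk1 also lost its call without control replicate 2 (0.59, adjusted p = 0.072) or without Sox11K91A replicate 1 or 2 (0.75 and 0.74, adjusted p = 0.073 and 0.074). With Sox11K91A, Dcx lost it without control replicate 2 (1.95, adjusted p = 0.056) or Sox11K91A replicate 1 (1.89, adjusted p = 0.069), Dclk2 lost it without control replicate 2 (0.63, adjusted p = 0.065) or Sox11K91A replicate 1 or 2 (0.66 and 0.81, adjusted p = 0.34 and 0.12), and Dclk1 passed without control replicate 1 (0.73, adjusted p = 0.045).

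The stathmins split. Stmn1 (chr4:134468320-134473843), the stathmin of dividing and immature cells, had 936 and 1489 CPM in controls, 2683 and 3440 with Sox11, and 3081 and 2672 with Sox11K91A. The controls were far apart and yet both lay well below the other 4 libraries, and Stmn1 rose 2.58-fold with Sox11 (1.37 ± 0.25, adjusted p = 0.018) and 2.44-fold with Sox11K91A (1.28 ± 0.25, adjusted p = 0.029). Stmn3 (chr2:181306459-181314500), a neuronal stathmin of maturing cells, had 841 and 1048 CPM in controls, 634 and 454 with Sox11, and 620 and 694 with Sox11K91A. It fell 1.74-fold with Sox11 (-0.80 ± 0.21, adjusted p = 0.039), and its -0.52 ± 0.21 with Sox11K91A was not called (adjusted p = 0.149).

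Stmn2, a growth cone protein, had 1383 and 1982 CPM in controls and 1962 to 2225 in the other libraries, and Stmn4 had 297 and 418 in controls and 427 to 582 in the others. Neither was called with either virus. For all 4 stathmins control replicate 2 had the higher value of the controls, and for Map1a, Map1b and Clasp1 the lower one, the order in which short and long transcripts differed between these libraries. The long transcripts of Mapre1 (233 CPM in control replicate 1 and 271 in control replicate 2) and Mapt (1544 and 1740) went the other way. Tubulin transcripts, shorter than these, went both ways. Tubb2a (1165 and 1104), Tubb3 (1141 and 1060) and Tubb4b (273 and 251) were lower in control replicate 2. Tuba1a (4021 and 4088) and Tubb2b (1341 and 1388) were higher in it. The part of the length difference between the control libraries in the results was not tested. Dropping Sox11 replicate 2 gave values with Sox11 of 1.19 for Stmn1 (adjusted p = 0.12) and -0.56 for Stmn3 (adjusted p = 0.23). Stmn3 also lost its call without control replicate 2 (-0.65, adjusted p = 0.1) or Sox11K91A replicate 1 or 2 (-0.80 and -0.81, adjusted p = 0.077 for each). Stmn3 was called in 9 of 19 alternatives, and its adjusted p was also 0.077 with sample quality weights, 0.072 and 0.067 with limma-trend, 0.08 in a fit of the 2 groups, 0.052 with the replicate block and 0.11 without control replicate 2 and Sox11 replicate 2 together. With Sox11K91A, Stmn1 lost its call without control replicate 2 (1.62, adjusted p = 0.053) or without Sox11K91A replicate 1 or 2 (1.19 and 1.38, adjusted p = 0.26 and 0.086).

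Of the 5 remaining genes, Fez1 (chr9:36821864-36878924), an adaptor that links cargo to kinesin-1 and takes part in axon outgrowth, was the only one called. This is 20.0% of the 5 with each virus, beside 20.1% (Sox11) and 10.6% (Sox11K91A) of all genes tested. Fez1 had 151 and 158 CPM in controls, 242 and 252 with Sox11, and 257 and 237 with Sox11K91A. The groups were well apart and it rose 1.60-fold with each virus (log2 fold change 0.68 ± 0.13 in both, adjusted p = 0.02 and 0.028). The tubulin folding cofactor Tbcb lay below the controls in all 4 transduced libraries (94.0 to 105 against 114 and 145 CPM) without being called, and Tbca, Ttl and Fez2 overlapped with the controls. Without Sox11 replicate 2 the value for Fez1 with Sox11 was 0.66 (adjusted p = 0.14), and without Sox11K91A replicate 1 or 2 it was 0.68 and 0.67 (adjusted p = 0.057 and 0.058). With Sox11K91A it was 0.71 without control replicate 2 (adjusted p = 0.057) and 0.62 and 0.73 without Sox11K91A replicate 1 and 2 (adjusted p = 0.34 and 0.13).

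**Figure D3:**
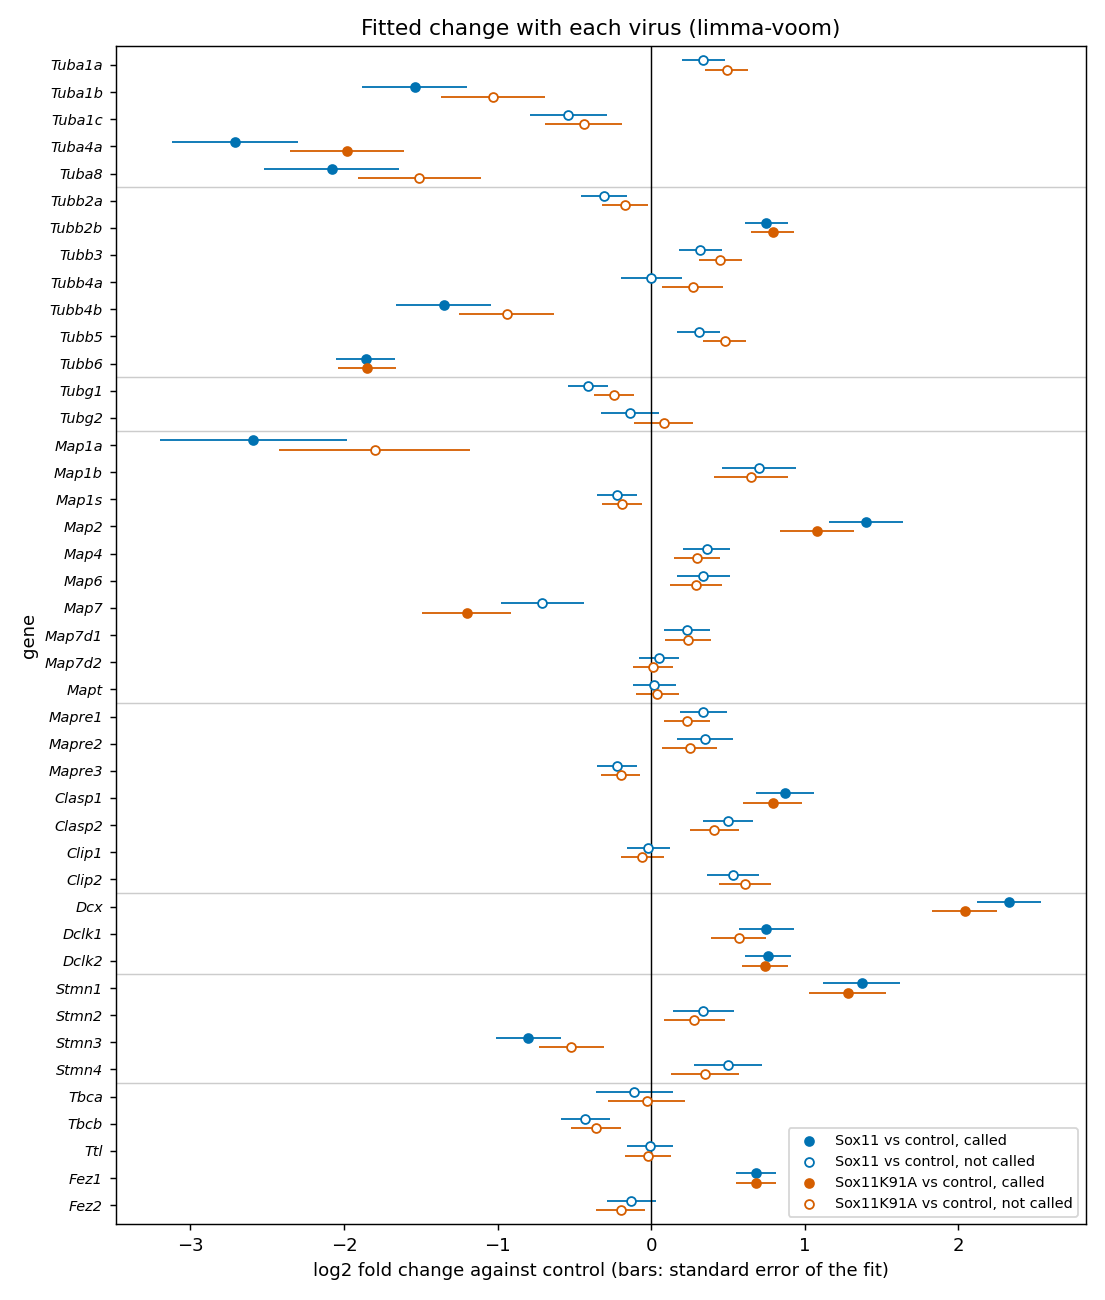
Log2 fold change against control (x axis) of each of the 43 genes with Sox11 (blue) and with Sox11K91A (orange), with bars for the standard error of the limma-voom fit, filled symbols for genes called and open symbols for genes not called. Dcx is farthest to the right at 2.33 and 2.04 and Tuba4a farthest to the left at -2.71 and -1.98. The viruses, which share control libraries, lie farthest apart for Map1a, at -2.59 and -1.80.

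Related genes were then set against each other within a library, as ratios of TPM that do not depend on the scaling of libraries. Tuba1a over Tuba1b was 6.63 and 6.65 in controls, 17.9 and 30.9 with Sox11, and 22.5 and 15.6 with Sox11K91A. Tubb2b over Tubb2a was 0.923 and 1.01 in controls, 1.76 and 2.29 with Sox11, and 2.04 and 1.73 with Sox11K91A. Map1b over Map1a was 2.23 and 3.05, 12.7 and 51.7, and 19.7 and 10.4, and Stmn1 over Stmn3 was 1.22 and 1.56, 4.64 and 8.31, and 5.45 and 4.22. In each of these 4 ratios every transduced library was above both controls, and Sox11 replicate 2 had the highest value. In CPM, the first gene of each pair already lay above and the second below both controls in all 4 transduced libraries. The lack of overlap of the ratios follows from those levels and is no further result.

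**Figure D4:**
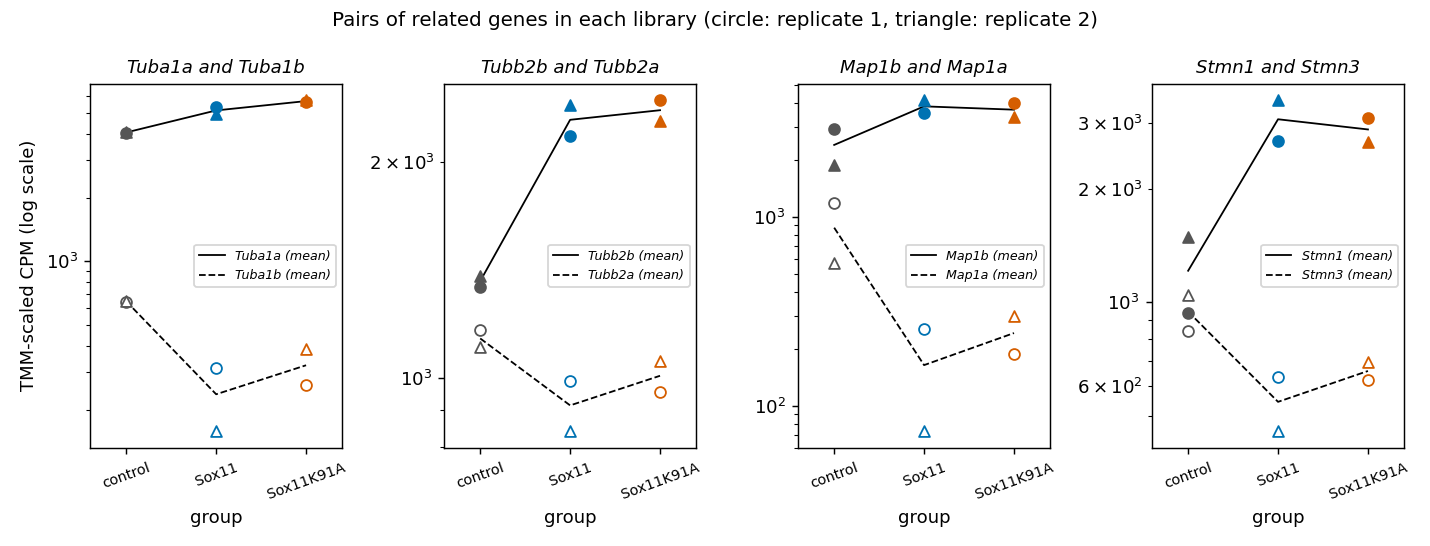
CPM on a log scale (y axis) by group (x axis) for 4 pairs of related genes, with filled symbols and a solid line through the means for the gene named first in each panel and open symbols and a dashed line for the other. Within each panel the lines part from control to both viruses, as in Map1b over Map1a, whose TPM ratio went from 2.23 and 3.05 in controls to between 10.4 and 51.7.

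Lists of genes known to be used more in growing neurons (Tuba1a, Tubb2b, Tubb3, Tubb5, Map1b, Dcx, Dclk1, Stmn1 and Stmn2) or in mature neurons (Tuba4a, Tubb2a, Tubb4a, Map1a and Map6) were compared by their summed TPM. The growth list summed to 14050 and 14661 TPM in controls, 22996 and 25399 with Sox11, and 24649 and 23371 with Sox11K91A, and the mature list to 3000 and 2361, 2543 and 2151, and 2431 and 2641. The first thus differed without overlap and the second overlapped. The log2 of their ratio was 2.43 ± 0.29 in controls, 3.37 ± 0.27 with Sox11 and 3.24 ± 0.14 with Sox11K91A (exact permutation p = 0.333 for each virus, two-sided, the smallest this design allows). Tuba1a and Stmn1 held much of the growth sum, with 5537 and 2197 of 14050 TPM in control replicate 1. The lists were chosen with earlier results of these data known, and Map2 and Mapt are on neither list. The sums above and the counts below thus describe these genes and are no independent test of a shift. All 9 growth genes had a log2 fold change above 0 with each virus, where 50.5% of all genes tested did so with Sox11 and 51.3% with Sox11K91A. Of the 9, 4 were called higher with Sox11 and 3 with Sox11K91A, beside 9.96% and 5.81% of all genes. Of the 5 mature genes, 2 were called lower with Sox11 (Tuba4a and Map1a) and 1 with Sox11K91A (Tuba4a), while Map6 had values above 0 (0.34 and 0.29).

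Whether loss of the lysine in Sox11K91A altered these genes was asked by setting both viruses against each other. With limma-voom 0 of the 43 were called, and 0 had an unadjusted p under 0.05, beside 0% of all genes tested called and 108 of them with an unadjusted p under 0.05. DESeq2 and edgeR also called 0 of the 43. The libraries did not overlap for 7 of the 43, where this held for 26.6% of all genes. The log2 differences of Sox11K91A from Sox11 ran from -0.50 to 0.79, and their median absolute value was 0.10, beside 0.14 over all genes. The 95% confidence interval held 0 for all 43 genes and stayed within 1 log2 unit of 0 for 37, so larger differences in the other 6 are within what these data allow.

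The largest differences were in genes that fell. For Map1a it was 0.79 ± 0.60 (interval -0.63 to 2.20), for Tuba4a 0.73 ± 0.43 (-0.28 to 1.75) and for Tuba8 0.57 ± 0.50 (-0.62 to 1.76), each with an adjusted p of 1.00. In each of them Sox11 replicate 2 had the lowest value of the 6 libraries and the others with a virus lay together, for example 255, 187 and 298 CPM of Map1a beside 73.1 in that library. With that library left out the differences became -0.11 for Map1a, -0.09 for Tuba8 and 0.00 for Tuba4a, and without Sox11 replicate 1 they were 1.70, 1.17 and 1.39. For Dcx the difference was -0.29 with an interval of -0.80 to 0.22, for Tubb2b it was 0.05 (-0.30 to 0.39) and for Fez1 0.00 (-0.31 to 0.31), and these intervals give the size of a difference that could have been missed.

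**Figure D5:**
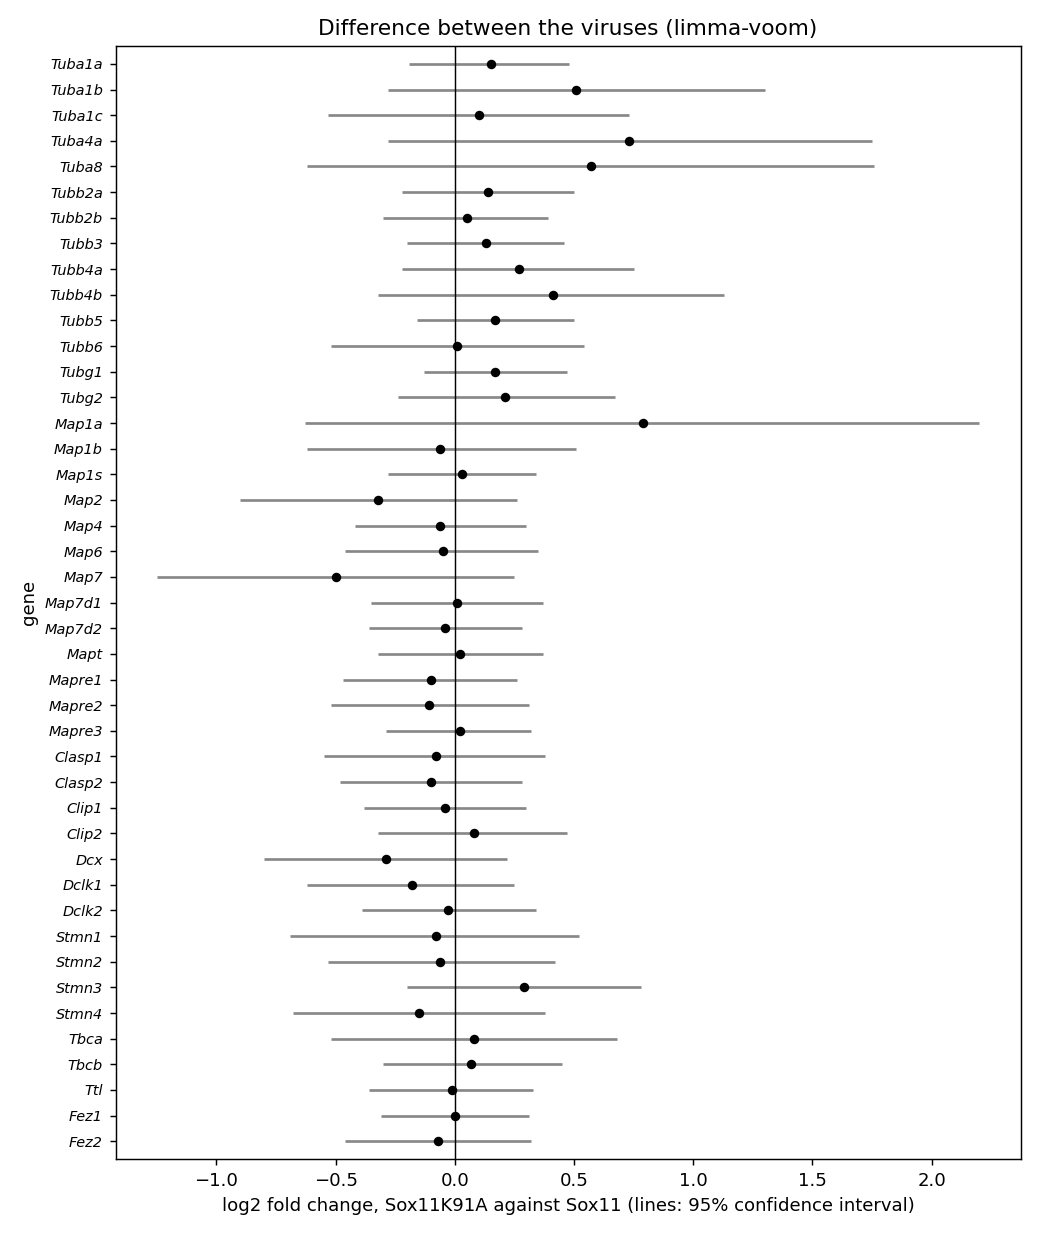
Log2 fold change of Sox11K91A against Sox11 (x axis) for each of the 43 genes, with lines for the 95% confidence interval of the limma-voom fit. All lines cross 0, and the longest, of Map1a, runs from -0.63 to 2.20.

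Gene tables hold no splice forms, but the deposited length of each gene is the mean length of its transcripts weighted by abundance, and moves when the use of long and short forms shifts. Of the 43 genes, 12 had a fixed length and 31 could be tested. With limma on the log2 length, 0 of the 31 passed an adjusted p of 0.05 in any comparison. An unadjusted p under 0.05 was found for 2 of the 31, Map4 and Map6, against control with each virus, where it was found for 6.16% of all 10150 genes tested with Sox11 and 5.11% with Sox11K91A, so this share is near the background and is no result about these genes.

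Other genes of microtubule biology, from a list of 68 of which 66 could be tested, were called at shares of 25.8% with Sox11 (13 higher and 4 lower), beside 20.1% of all genes tested (9.96% higher and 10.2% lower), and 16.7% with Sox11K91A (8 higher and 3 lower), beside 10.6% (5.81% higher and 4.81% lower). Mtus1, which encodes a microtubule-binding protein, was upregulated with both viruses, from 46.5 and 52.2 CPM in controls to 156 and 197 with Sox11 (log2 fold change 1.83 ± 0.18, adjusted p = 0.0083) and 169 and 140 with Sox11K91A (1.64 ± 0.18, adjusted p = 0.012). The ninein-like gene Ninl, of the microtubule-organizing centre, rose 2.54-fold and 2.42-fold, the severing enzyme subunit Katna1 2.32-fold with Sox11, and the plus-end gene Slain1 2.17-fold with Sox11K91A. Downregulated were Ttll7, which adds glutamates to tubulin (2.03-fold with Sox11), Tppp, which promotes tubulin polymerization (1.92-fold and 1.81-fold), the folding cofactor Tbcc (1.66-fold and 1.53-fold) and, with Sox11K91A, the doublecortin-like kinase Dclk3 (4.31-fold, from 2.18 and 2.91 CPM to 0.497 and 0.686). Dclk3 thus went the other way from Dcx and Dclk2. With Sox11, limma-voom called 0 of this list without Sox11 replicate 2 (17 with an unadjusted p under 0.05), 9 without control replicate 2 or either Sox11K91A library, and 30 without control replicate 1. With Sox11K91A it called 0 without control replicate 2 (29), 0 without Sox11K91A replicate 1 (11), 1 without Sox11K91A replicate 2 and 26 without control replicate 1.

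SOX factors bind short motifs of the form AACAAAG or AACAAT through their HMG box. In windows from 250 bases before to 50 bases after RefSeq start sites (GRCm38.p6, both strands searched), 33 of the 43 genes had at least 1 window. These genes had 43 windows in all. Genes without a window, among them the called genes Tubb2b, Stmn1, Clasp1 and Tubb6, could not be searched. AACAAAG was found in 1 of these 43 windows, that of Dcx, and in 5.85% of all 32851 windows. AACAAT was found in 5 of the 43, of the 4 genes Fez1, Mapre3, Tubb4b and Tubb5, and in 10.7% of all windows. Fez1 rose, Tubb4b fell with Sox11, and Mapre3 and Tubb5 were called with neither virus. The 30 bases before the RefSeq start site of Dcx are shown with the motif in capitals (chrX:143933125-143933154, minus strand), because Dcx had the largest rise.
Dcx: tttcttgcttggagctcagacAACAAAGgc
In GENCODE M21 the Dcx gene starts farther upstream (chrX:143855842-143933311, minus strand), so the bases shown lie inside that gene. They precede only the RefSeq start. A match of letters in this window is a description and no measure of binding.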

How the data were processed

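RNA-seq of cultured RGCs with 2 replicates in each of 3 groups was analysed from 1 table per library. The authors aligned reads to mm10 with STAR and counted them with RSEM, and deposited an expected count per gene, not normalized and not always whole, a TPM value per gene, scaled by the authors to transcript length and library, a weighted transcript length and a posterior SD. Versions, annotation and strand use are not given in the sources used here, and replicates were not pooled. Expected counts were rounded. Of 69690 entries, 26248 numbered entries (1 count in all) and 96 spike-ins (0 counts) were left out. Symbols and coordinates came from GENCODE M21 (GRCm38), matched without version for 42462 of 43346 genes.

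Genes were filtered with filterByExpr and scaled with TMM in edgeR 4.0.16, giving 15747 genes, and tested with limma-voom (limma 3.58.1, R 4.3.3), all 6 libraries in 1 fit, Benjamini-Hochberg over all genes, two-sided, with calls at an adjusted p under 0.05 and a change over 1.2-fold. The study's methods name limma-voom and these thresholds, while the filter, the scaling and the fit of all libraries were chosen here. CPM values use TMM-scaled library sizes. Depth, 27521982 to 37061718 counts, limits precision less than the 2 replicates do. Alternatives were edgeR's quasi-likelihood test, DESeq2 1.42.0, quality weights, limma-trend on log2(TPM + 1) or log2(TPM + 0.1), other size factors and filters, a fit of 2 groups, the replicate number as a block, other fold thresholds, each library left out, and, added after seeing the data, 3 settings for libraries that stood apart. The test was also run on simulated counts, drawn without the gene-length difference of control replicate 2 or an outlying library. It is therefore no check of calls that rest on single libraries. Genes given with a test are those called against control, the 3 with the largest difference between the viruses, and, from the other microtubule genes with a mean of at least 1 CPM, the 3 largest called rises and falls. The genes and lists were chosen with earlier results of these data known. Tables and plots used Python 3.11.15, pandas 2.3.3, scipy 1.17.1 and matplotlib 3.10.9. The coding sequences of the alpha-tubulin genes are not reported here.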

Additional observations from a re-analysis of the deposited data

How the results depend on the processing

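With 2 libraries per group, single libraries decided the calls. Without each library in turn, the genes called among all tested ranged from 0 to 3753 with Sox11 and 0 to 2563 with Sox11K91A, those of the 43 from 0 to 20 and 0 to 16, and those of the other microtubule genes from 0 to 30 and 0 to 26. The lone library left in a group is then assumed to vary like the other groups. In no alternative against control did any of the called genes of the 43 change sign. Against Sox11, the Sox11K91A difference turned to -0.11 for Map1a and -0.09 for Tuba8 without Sox11 replicate 2, and likewise without it and control replicate 2 together, with highest values of 1.70 and 1.17 without Sox11 replicate 1.

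Sample quality weights gave 979 genes, 7 of the 43 and 5 of the other microtubule genes with Sox11, and all 7 were among the 15. A fit of the 2 groups alone gave 1598, 9 and 7 with Sox11. Limma-trend on log2(TPM + 1) gave 9 of the other genes with Sox11, and with Sox11K91A 936 genes, 4 of the 43 and 5 others. On log2(TPM + 0.1) it gave 2107 genes (1287 higher and 820 lower, where voom gave 1568 and 1603) and 8 others with Sox11, and 896 (579 higher, 317 lower), 6 and 4 with Sox11K91A. DESeq2 gave 27 other genes with Sox11, 3144 genes, 18 of the 43 and 22 others with Sox11K91A, and 2 genes between the viruses. After seeing the data, control replicate 2 and Sox11 replicate 2, which had the lowest Xist counts of their groups, were left out together, which gave 2094 genes and 8 others with Sox11 and 4108, 20 and 24 with Sox11K91A. A block for these libraries gave 26 others with Sox11, and 2894 genes and 17 others with Sox11K91A. The cause of these shifts was not tested.

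No source says that replicate numbers pair the libraries. Same-numbered deviations correlated at 0.259 between Sox11 and control, whose replicates 2 were both low in Xist (254 and 95.9 CPM), -0.045 between Sox11K91A and control and -0.282 between the viruses. The replicate block gave 2679 genes and 14 of the 43 with Sox11, 1402 and 9 with Sox11K91A, and 0 between the viruses, also with the Sox11K91A numbers exchanged. This block ended the calls of Stmn3 with Sox11 and of Map7 and Clasp1 with Sox11K91A, and added Tuba8 with Sox11K91A (adjusted p = 0.045). With CPM in place of TPM, share differences moved to -6.17 points for Tubb2a, 0.885 for Tubb3 and -2.66 for Tubb4b with Sox11K91A, -0.0617 for Tuba1c with Sox11, and, with Sox11 and Sox11K91A, -1.80 and -1.69 for Tuba4a and -0.126 and -0.118 for Tuba8, the same sign in each case.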
